A study of Mus musculus with 7 samples.

Results

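Fatty acid oxidation, the pyruvate dehydrogenase complex and the tricarboxylic acid (TCA) cycle were examined in mouse quadriceps through 46 genes, listed by symbol, of the 53819 in the deposited table. All 46 were found and all 46 passed the filter on low counts. The IGFBP1 group was 3 libraries labelled AAV8-IGFBP1, from wild type male C57BL/6J mice given 200 µl of AAV8-Alb-IGFBP1, a liver-tropic adeno-associated virus vector, by tail vein at 8 weeks of age. The control group was 4 libraries labelled AAV8-Null, from the same strain, sex and age given the same volume of AAV8-Alb-Null. Every mouse thus carried an AAV8 vector, and no uninjected muscle was analysed here. The muscle was taken 54 days after injection. IGFBP1 is a circulating binding protein of the insulin-like growth factors that hepatocytes secrete. Whether every numbered replicate was a separate mouse is not stated, so each p-value reflects the spread among these libraries alone, and that spread may be technical.

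Muscle takes up fatty acids, activates them to acyl-CoA, carries them into mitochondria on carnitine and shortens them by repeated cycles of beta-oxidation. The acetyl-CoA so made enters the TCA cycle beside acetyl-CoA made from pyruvate by pyruvate dehydrogenase, and the fibre sets the balance between both fuels. Slow oxidative fibres hold more of these enzymes than the fast glycolytic fibres that make up most of the mouse quadriceps.

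Igfbp1 had 202, 1425 and 142 counts in the 3 AAV8-IGFBP1 libraries, against 0, 0, 0 and 8 counts in AAV8-Null replicates 1 to 4. The library totals ran from 39927112 to 46197173 counts in AAV8-IGFBP1 and from 38947453 to 51210360 in AAV8-Null. Values per gene are given in CPM, the read count scaled to a common library total. The members lay between 181 and 45718 counts in single libraries, far above the 3 counts that a count of 0 allows. The 10 genes listed as markers of skeletal muscle summed to 72520 to 82330 CPM in AAV8-IGFBP1 and 70680 to 78080 CPM in AAV8-Null. Of 7 cardiomyocyte markers, Nppb and Myl7 were at 0 in all 7 libraries, Nppa, Tnni3 and Ryr2 had 0 to 10 counts, and Myh6 and Myl4 passed the filter. Myh6 had 66 to 114 counts in AAV8-IGFBP1 and 70 to 200 counts in AAV8-Null, and Myl4 had 148 to 241 counts in AAV8-IGFBP1 and 114 to 155 counts in AAV8-Null.

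In edgeR's quasi-likelihood fit, 0 of the 46 members had an adjusted p under 0.05, where 87 of 14935 genes did (0.583%). The lowest adjusted p among members was 0.306, of Acacb. At an unadjusted p under 0.05, 2 members stood out, Acacb with a higher and Pdha1 with a lower mean in AAV8-IGFBP1, which is 2 of 46 beside 12.9% of all genes tested. The DESeq2 Wald test and limma-voom called 0 members as well, where they called 2.99% and 0.415% of all genes. They had 5 and 2 members at an unadjusted p under 0.05. The log2 fold change, AAV8-IGFBP1 over AAV8-Null, was below 0 in 37 of 46 members, against 50.1% of all genes, and its median was -0.13, against -0.001 for all genes. The count of 37 was the same with each of the 3 other scalings tried. Most single members thus lay under the AAV8-Null mean by less than the spread between libraries. With single libraries left out, the median was -0.08 for AAV8-Null replicate 4, -0.08 for AAV8-IGFBP1 replicate 1, and -0.19 for AAV8-Null replicate 2. The members at an unadjusted p under 0.05 numbered 8 when AAV8-IGFBP1 replicate 3 was left out, and 11, 4 and 5 when AAV8-Null replicate 2, 3 or 4 was. Leaving out the first library of either group gave 1 such member, and leaving out AAV8-IGFBP1 replicate 2 gave 0. The share of all genes at that unadjusted threshold was counted for the main fit alone. The counts of members under DESeq2, limma-voom and the left-out libraries therefore have no background beside them. The precision differed between members: for Suclg1 the 95% interval of the log2 fold change was -0.20 to 0.093, and for Pdk4 it was -1.12 to 0.87.

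**Figure D1:**
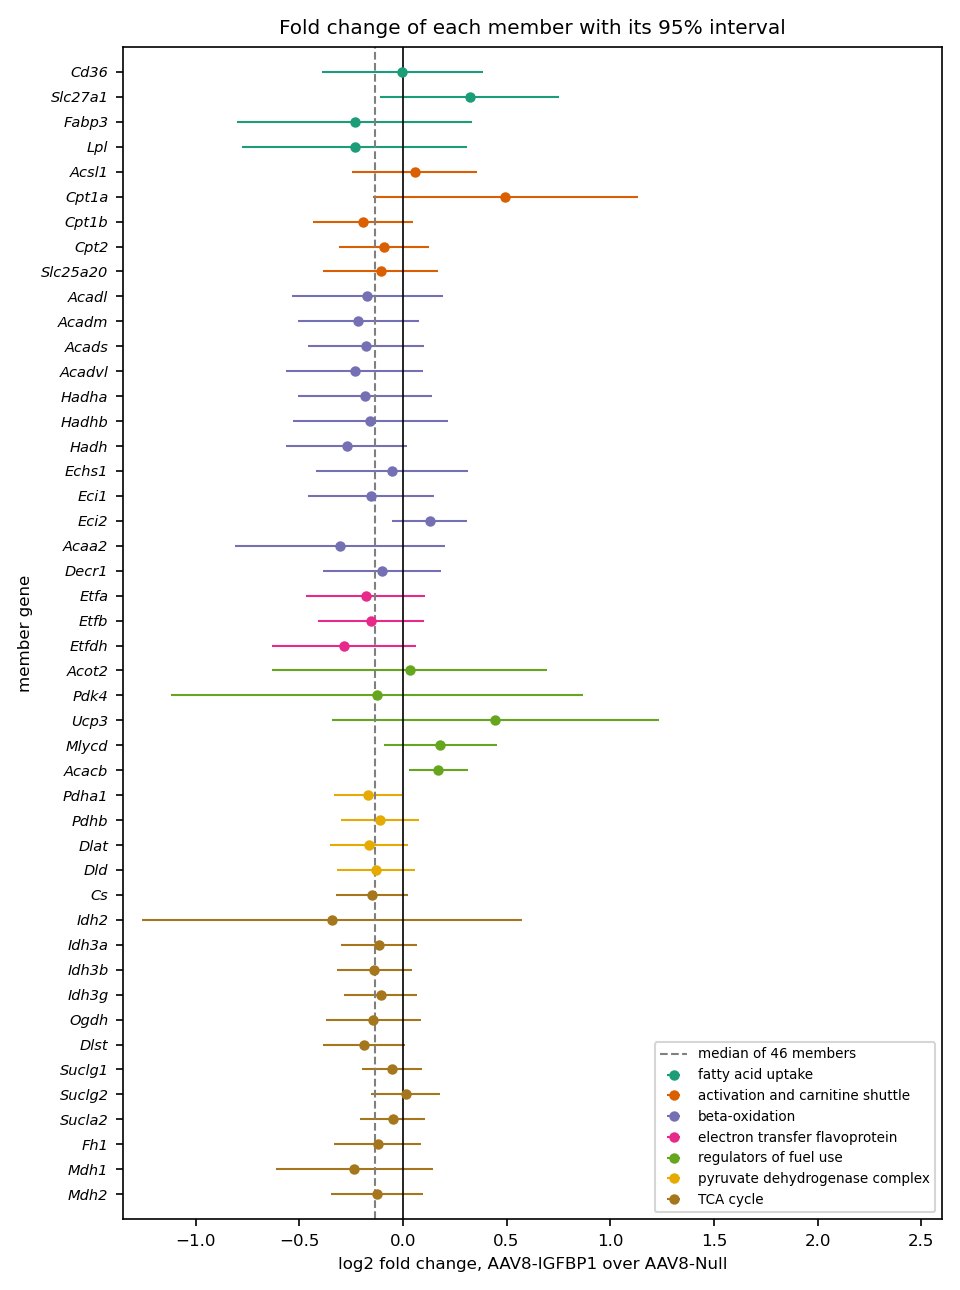
Log2 fold change (AAV8-IGFBP1 over AAV8-Null) of each of the 46 members from the edgeR fit, with its approximate 95% interval as a line and colours for the 7 roles. The dashed line marks the members' median of -0.13; the intervals of Acacb and Pdha1 alone leave out 0, and neither gene passed the adjusted test.

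Many members shared an order of libraries that cut across the groups. In 35 of 46 members AAV8-Null replicates 1 and 4 were the 2 highest of all 7 libraries, as in 7.33% of all genes tested. This held for 11 of 12 beta-oxidation genes, 3 of 3 electron transfer flavoprotein genes, 4 of 4 pyruvate dehydrogenase genes and 11 of 13 TCA cycle genes, but for 0 of 5 regulators of fuel use. That pair of libraries was picked after the values were seen, and genes are not independent replicates. AAV8-IGFBP1 replicate 1 was the lowest library in 18 members and AAV8-Null replicate 2 in 14. The mean level over the 46 members, in log2 CPM centred over the libraries, was -0.10, -0.057 and 0.027 in AAV8-IGFBP1 replicates 1 to 3, against 0.17, -0.19, -0.10 and 0.25 in AAV8-Null replicates 1 to 4. AAV8-Null replicates 1 and 4 lay above all 3 AAV8-IGFBP1 libraries, replicate 2 lay below them and replicate 3 beside the lowest, so the groups overlapped. Over the whole list the spread of the controls was wider: the median coefficient of variation over the members was 9.52% in AAV8-IGFBP1 and 15.99% in AAV8-Null, beside 10.1% and 11.3% over all genes tested. It was larger in AAV8-Null for 35 of 46 members, against 54.2% of all genes, with 12 of 12 beta-oxidation genes, 7 of 13 TCA cycle genes and 1 of 4 pyruvate dehydrogenase genes among them.

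**Figure D2:**
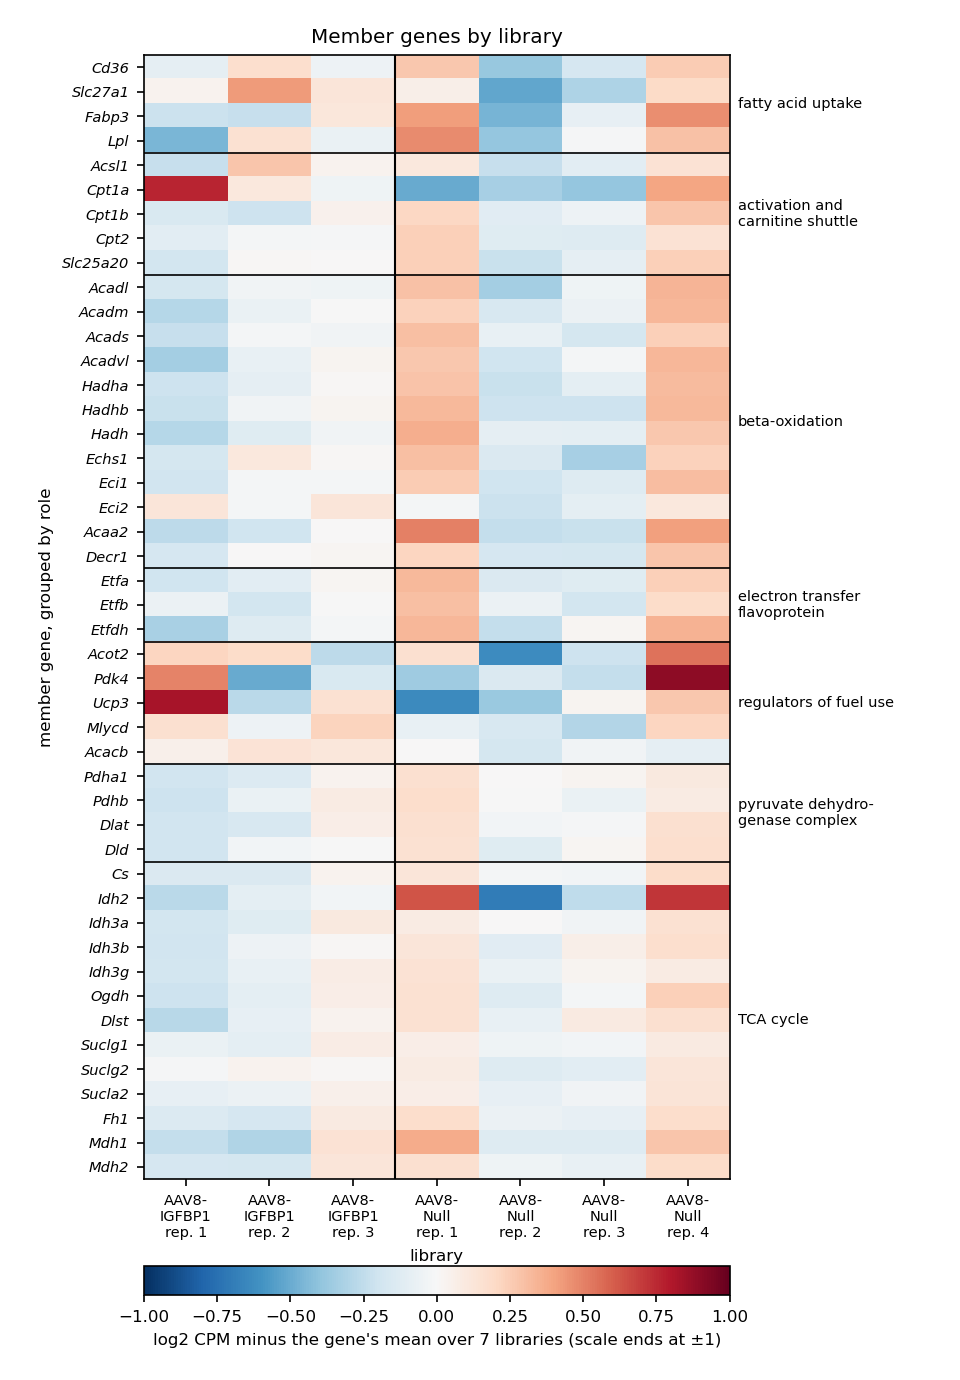
Log2 CPM of each member minus its mean over the 7 libraries (colour; red above, blue below the mean), with genes down the page by role and libraries across, the 3 AAV8-IGFBP1 libraries left of the 4 AAV8-Null libraries. AAV8-Null replicates 1 and 4 are the 2 reddest columns in 35 of the 46 genes, while Cpt1a, Pdk4 and Ucp3 are highest in AAV8-IGFBP1 replicate 1 or AAV8-Null replicate 4.

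The markers of slow fibres shared part of this order. Their list level over 16 genes was -1.23, -0.64 and -0.020 in AAV8-IGFBP1 replicates 1 to 3, against 1.02, -0.29, 0.31 and 0.85 in AAV8-Null replicates 1 to 4 (exact permutation p = 0.0857, two-sided, where 35 splits can give 0.0286 at the least). AAV8-Null replicates 1 and 4 were the highest 2 libraries here too. Unlike in the members, AAV8-Null replicate 3 lay above all AAV8-IGFBP1 libraries and replicate 2 above AAV8-IGFBP1 replicates 1 and 2. The level over 11 fast fibre markers was 0.0085, -0.070 and 0.061 in AAV8-IGFBP1 replicates 1 to 3. It was -0.072, 0.0078, -0.010 and 0.075 in AAV8-Null replicates 1 to 4. This level averages genes of both signs. Of the 11, 8 had a log2 fold change above 0, 3 lay below 0 and 0 passed the test. The lowest was Myh2 (-0.66, adjusted p = 0.562 by edgeR). AAV8-Null replicates 1 and 4 were its 2 highest libraries (4134 and 4132 CPM). Myh4 (log2 change 0.17, adjusted p = 0.551 by edgeR) had all 3 AAV8-IGFBP1 libraries above all 4 controls, as 6.33% of all genes had. The slow myosin heavy chain gene Myh7 lay at 63.1, 181 and 327 CPM in AAV8-IGFBP1 replicates 1 to 3, against 747, 191, 480.1 and 678 CPM in AAV8-Null replicates 1 to 4. Of the 16 slow fibre markers 15 had a log2 fold change below 0 and 0 passed the test, with 9 at an unadjusted p under 0.05, all lower in AAV8-IGFBP1. In 3 of the 16 all AAV8-IGFBP1 libraries lay below all AAV8-Null libraries, as in 6.01% of all genes tested. The summed level of the 16 was 591 to 1400 CPM in AAV8-IGFBP1 and 1108 to 2863 CPM in AAV8-Null. The share of counts on mitochondrially encoded genes was 14.7%, 14.8% and 15.5% in AAV8-IGFBP1 replicates 1 to 3, against 17.7%, 15.1%, 18.1% and 18.6% in AAV8-Null replicates 1 to 4 (exact permutation p = 0.0857, two-sided). Adipocyte markers had a level of 0.041, 2.00 and -0.40 in AAV8-IGFBP1 replicates 1 to 3, against 0.14, -0.045, -1.05 and -0.68 in AAV8-Null replicates 1 to 4 over 12 genes, with AAV8-IGFBP1 replicate 2 apart from the rest. All 12 had a log2 change above 0, 0 passed the test and 3 (Car3, Slc7a10 and Ucp1) had an unadjusted p under 0.05. For Car3, which slow muscle fibres also express, and Slc7a10, all 3 AAV8-IGFBP1 libraries lay above all 4 AAV8-Null libraries. That held for 6.33% of all genes tested. Rn18s, a ribosomal RNA gene, took 1.09%, 2.29% and 1.52% of counts in AAV8-IGFBP1 replicates 1 to 3, against 0.593%, 0.653%, 1.32% and 0.797% in AAV8-Null replicates 1 to 4. The part of fibre type, mitochondrial RNA, ribosomal RNA or fat in the members' values was not tested, and fewer cells of a type and less RNA per cell cannot be told apart in bulk muscle.

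**Figure D3:**
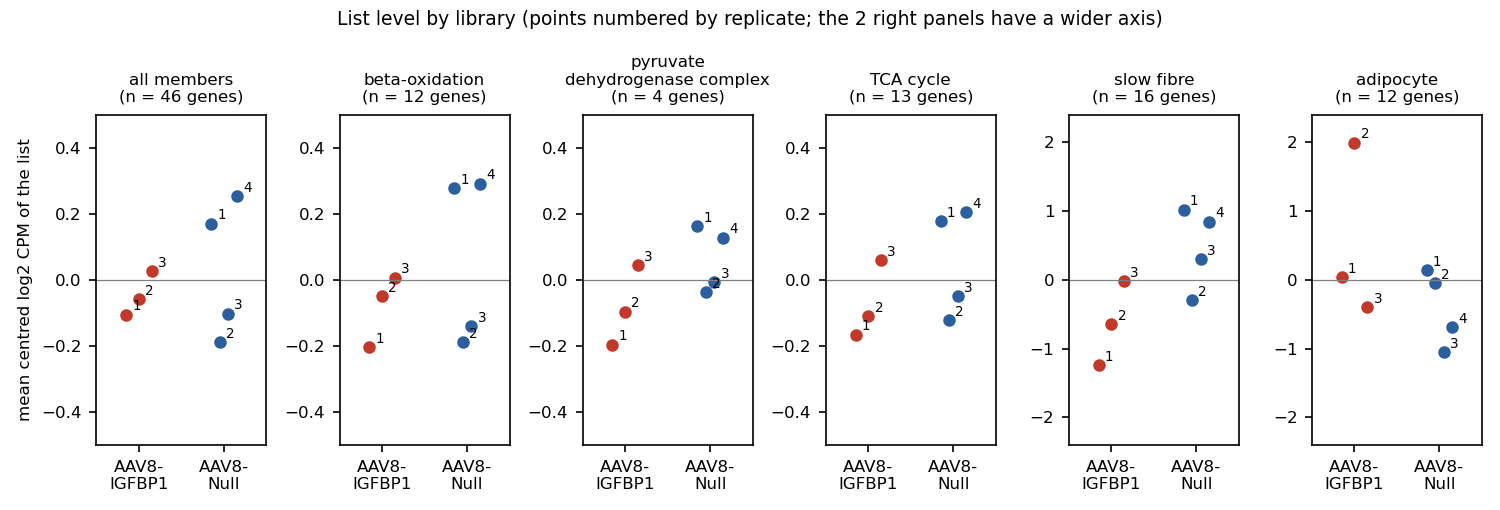
Mean centred log2 CPM of 4 member lists and 2 marker lists in each library, AAV8-IGFBP1 (red) left of AAV8-Null (blue), points numbered by replicate. In the 4 member lists AAV8-Null replicates 1 and 4 lie above all other libraries, and replicates 1 and 4 are also the highest for slow fibre markers.

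As a description, the promoters of members were searched for the binding letters of the nuclear receptors that are known to drive fatty acid oxidation genes. Of 46 members 41 were found in RefSeq's promoter table (GRCm38.p6), and the 250 bases before the start were searched on both strands. The core site AGGTCA was present in 8 of 41 members (19.5%), against 15.8% of all 27025 genes in the table. The longer element TCAAGGTCA of the estrogen-related receptors, which contains the core site, was found in 0 of 41 members and 0.422% of all genes. A direct repeat of the core site with 1 base between, the textbook element of the PPARs, was found in 0 of 41 members and 0.0407% of all genes. A match describes letters only, and a missing match says nothing of the receptor. Promoters with the core site are shown for beta-oxidation genes whose highest libraries were AAV8-Null replicates 1 and 4, and then a pair for genes whose highest libraries were AAV8-IGFBP1 replicate 1 and AAV8-Null replicate 4, so that the letters of both patterns can be read. Each runs 5′ to 3′ toward the gene, with the core site, or its reverse complement, in capitals. They lie at chr3:153944644-153944893, minus strand (Acadm), chr11:70015429-70015678, minus strand (Acadvl), chr7:140116422-140116671, minus strand (Echs1), chr7:100472741-100472990, plus strand (Ucp3) and chr19:3323051-3323300, plus strand (Cpt1a), in GRCm38.p6, while the counts were made on GRCm39.
Acadm: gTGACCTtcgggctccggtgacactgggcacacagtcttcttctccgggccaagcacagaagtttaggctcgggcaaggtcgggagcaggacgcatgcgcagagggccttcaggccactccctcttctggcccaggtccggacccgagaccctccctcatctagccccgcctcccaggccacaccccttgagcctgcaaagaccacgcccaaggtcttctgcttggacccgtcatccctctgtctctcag
Acadvl: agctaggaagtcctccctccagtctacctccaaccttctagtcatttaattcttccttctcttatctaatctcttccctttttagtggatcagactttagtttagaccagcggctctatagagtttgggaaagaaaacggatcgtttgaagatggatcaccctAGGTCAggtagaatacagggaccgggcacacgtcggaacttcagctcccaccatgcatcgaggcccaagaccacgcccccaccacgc
Echs1: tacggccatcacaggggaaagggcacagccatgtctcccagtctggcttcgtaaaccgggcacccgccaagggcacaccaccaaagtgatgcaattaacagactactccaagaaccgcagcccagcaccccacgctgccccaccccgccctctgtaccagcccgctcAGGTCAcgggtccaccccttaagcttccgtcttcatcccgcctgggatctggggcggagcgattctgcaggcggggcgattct
Ucp3: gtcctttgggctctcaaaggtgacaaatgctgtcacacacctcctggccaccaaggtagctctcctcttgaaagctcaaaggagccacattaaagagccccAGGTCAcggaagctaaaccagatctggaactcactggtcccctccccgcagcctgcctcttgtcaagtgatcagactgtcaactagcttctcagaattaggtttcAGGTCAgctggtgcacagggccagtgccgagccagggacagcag
Cpt1a: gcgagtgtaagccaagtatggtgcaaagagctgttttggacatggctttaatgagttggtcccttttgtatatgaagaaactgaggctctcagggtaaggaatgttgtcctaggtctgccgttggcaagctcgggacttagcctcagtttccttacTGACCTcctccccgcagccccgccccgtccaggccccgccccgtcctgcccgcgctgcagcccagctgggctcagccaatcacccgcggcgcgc

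The letters differed in place and number between these promoters. The Acadm match began 249 bases before the start, on the opposite strand, those of Acadvl and Echs1 87 and 83 bases before it on the gene's own strand, and that of Cpt1a 94 bases before it on the opposite strand. Ucp3 had 2 matches, 149 and 44 bases before the start. These promoters were shown because they held the core site, so its presence in both patterns of libraries says nothing of either.

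Of 4 genes of fatty acid uptake, 1 had a log2 fold change above 0, 3 lay below 0 and 0 passed the test. Lpl, the lipoprotein lipase that frees fatty acids from circulating triglyceride, lay at 399, 609.8 and 524 CPM in AAV8-IGFBP1 replicates 1 to 3, against 759.8, 421, 545 and 674 CPM in AAV8-Null replicates 1 to 4. Its groups overlapped (log2 change -0.23 with SE 0.23, adjusted p = 0.736 by edgeR). Fabp3, the fatty acid binding protein of heart and muscle cytosol, lay at 470.3, 464 and 591 CPM in AAV8-IGFBP1 replicates 1 to 3, against 729, 395, 515 and 752 CPM in AAV8-Null replicates 1 to 4. The AAV8-IGFBP1 libraries lay inside the AAV8-Null range, which ran from replicate 2 to replicate 4 (log2 change -0.23 with SE 0.24, adjusted p = 0.75 by edgeR). Slc27a1, which encodes the fatty acid transporter FATP1, lay at 81.8, 107 and 87.0 CPM in AAV8-IGFBP1 replicates 1 to 3, against 83.1, 55.7, 64.5 and 91.3 CPM in AAV8-Null replicates 1 to 4. It was the uptake gene with the lowest unadjusted p (log2 change 0.32 with SE 0.18, adjusted p = 0.532 by edgeR), and 2 AAV8-Null libraries lay above the lowest AAV8-IGFBP1 library. Cd36, the plasma membrane fatty acid translocase, averaged 182 ± 18.1 CPM in AAV8-IGFBP1 and 182 ± 39.2 CPM in AAV8-Null (SD, n = 3 and 4), with a log2 fold change of -0.0035 and a 95% interval of -0.39 to 0.39. Cd36, Lpl and Slc27a1 are also expressed by adipocytes, and each was highest within AAV8-IGFBP1 in replicate 2, the library with the highest adipocyte marker level; the part of fat in these values was not tested.

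Of 5 genes of activation to acyl-CoA and the carnitine shuttle, 2 had a log2 fold change above 0, 3 lay below 0 and 0 passed the test. Acsl1, a long-chain acyl-CoA synthetase, averaged 342 ± 59.4 CPM in AAV8-IGFBP1 and 329 ± 40.2 CPM in AAV8-Null (SD, n = 3 and 4). It was highest in AAV8-IGFBP1 replicate 2 (402 CPM), the library with the highest adipocyte marker level. Its log2 change was 0.056, and -0.077 with that library left out, and the part of fat was not tested. Cpt1b, the muscle-type carnitine palmitoyltransferase of the outer membrane that is inhibited by malonyl-CoA, lay at 221, 213 and 254 CPM in AAV8-IGFBP1 replicates 1 to 3, against 284, 228, 237 and 298 CPM in AAV8-Null replicates 1 to 4. AAV8-IGFBP1 replicate 3 lay above AAV8-Null replicates 2 and 3 and the other 2 below all controls (log2 change -0.19 with SE 0.11, adjusted p = 0.504 by edgeR). Cpt1a, the liver-type form, lay at 10.6, 6.70 and 6.02 CPM in AAV8-IGFBP1 replicates 1 to 3, against 4.37, 4.93, 4.74 and 8.18 CPM in AAV8-Null replicates 1 to 4. AAV8-IGFBP1 replicate 1 was the highest library and AAV8-Null replicate 4 stood above the 3 other controls, so the groups overlapped, and this gene had the highest log2 fold change of the 46 members (log2 change 0.49 with SE 0.27, adjusted p = 0.512 by edgeR). Its log2 change was 0.20 (adjusted p = 0.844 by edgeR) with AAV8-IGFBP1 replicate 1 left out, where Slc27a1 was the highest member at 0.40, and 0.73 (adjusted p = 0.216) with AAV8-Null replicate 4 left out. Cpt2, which remakes acyl-CoA inside the mitochondrion, lay at 48.2, 51.1 and 51.4 CPM in AAV8-IGFBP1 replicates 1 to 3, against 61.3, 47.6, 47.5 and 57.4 CPM in AAV8-Null replicates 1 to 4. The AAV8-IGFBP1 libraries spanned a narrow range inside that of the controls (log2 change -0.090 with SE 0.096, adjusted p = 0.756 by edgeR). Slc25a20, the carnitine and acylcarnitine carrier of the inner membrane, averaged 45.4 ± 3.42 CPM in AAV8-IGFBP1 and 48.9 ± 7.78 CPM in AAV8-Null (SD, n = 3 and 4), with a log2 fold change of -0.11 (by edgeR, adjusted p = 0.771).

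The beta-oxidation enzymes had log2 fold changes below 0 in 11 of 12 genes, with a median of -0.18 and a range of -0.30 to 0.13, and 0 of 12 passed the test. Hadh, the dehydrogenase for short and medium 3-hydroxyacyl-CoA, lay at 112, 125 and 133 CPM in AAV8-IGFBP1 replicates 1 to 3, against 176, 129, 128 and 164 CPM in AAV8-Null replicates 1 to 4. AAV8-IGFBP1 replicate 3 lay above AAV8-Null replicates 2 and 3, so the groups overlapped (log2 change -0.27 with SE 0.13, adjusted p = 0.424 by edgeR, 95% interval -0.56 to 0.020). Acadm, the medium-chain acyl-CoA dehydrogenase, lay at 216, 250.3 and 263 CPM in AAV8-IGFBP1 replicates 1 to 3, against 309, 236, 252 and 331 CPM in AAV8-Null replicates 1 to 4. AAV8-IGFBP1 replicate 1 was the lowest library and the other 2 lay between AAV8-Null replicates 2 and 1 (log2 change -0.21 with SE 0.13, adjusted p = 0.539 by edgeR). Acadvl, the very long-chain dehydrogenase of the inner membrane, lay at 207, 249 and 268 CPM in AAV8-IGFBP1 replicates 1 to 3, against 316, 229, 259 and 331 CPM in AAV8-Null replicates 1 to 4. It had the same order at both ends, with AAV8-Null replicate 4 highest and AAV8-IGFBP1 replicate 1 lowest (log2 change -0.23 with SE 0.14, adjusted p = 0.559 by edgeR). Acadl and Acads, the long-chain and short-chain dehydrogenases, had log2 fold changes of -0.17 and -0.18 (by edgeR, adjusted p = 0.715 and 0.599).

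Hadha and Hadhb encode the alpha and beta subunits of the mitochondrial trifunctional protein. Hadha averaged 313 ± 24.1 CPM in AAV8-IGFBP1 and 355 ± 66.4 CPM in AAV8-Null (SD, n = 3 and 4). Hadhb averaged 217 ± 19.4 CPM in AAV8-IGFBP1 and 242 ± 51.04 CPM in AAV8-Null (SD, n = 3 and 4), and both groups of each gene overlapped. Acaa2, a thiolase of the last step of the cycle, had the lowest log2 fold change of the 12 (log2 change -0.30 with SE 0.21, adjusted p = 0.622 by edgeR), at 77.1, 80.6 and 92.6 CPM in AAV8-IGFBP1 replicates 1 to 3, against 131, 78.4, 79.1 and 123 CPM in AAV8-Null replicates 1 to 4. The AAV8-Null libraries fell into 2 high and 2 low values, and the AAV8-IGFBP1 libraries lay beside the low ones. Echs1, the short-chain enoyl-CoA hydratase, had a log2 fold change of -0.053 (95% interval -0.42 to 0.31). Eci1 and Decr1, an enoyl-CoA isomerase and a dienoyl-CoA reductase used for unsaturated fatty acids, had log2 fold changes of -0.15 and -0.10 (by edgeR, adjusted p = 0.69 and 0.797). Eci2, the isomerase also found in peroxisomes, was the only one of the 12 above 0 (log2 change 0.13 with SE 0.081, adjusted p = 0.56 by edgeR), at 39.8, 36.1 and 39.7 CPM in AAV8-IGFBP1 replicates 1 to 3, against 36.0, 31.5, 34.2 and 39.3 CPM in AAV8-Null replicates 1 to 4. It was also the one beta-oxidation gene whose 2 highest libraries were not AAV8-Null replicates 1 and 4.

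The genes of electron transfer flavoprotein, which takes electrons from the acyl-CoA dehydrogenases to ubiquinone, all had lower means in AAV8-IGFBP1, within the spread of the controls. Etfdh, the inner membrane oxidoreductase, lay at 101, 115 and 124 CPM in AAV8-IGFBP1 replicates 1 to 3, against 158, 106, 128 and 160 CPM in AAV8-Null replicates 1 to 4. AAV8-Null replicate 2 lay among the AAV8-IGFBP1 libraries (log2 change -0.29 with SE 0.15, adjusted p = 0.486 by edgeR). With 1 library left out at a time, the log2 change of Etfdh ran from -0.39 to -0.21 and its adjusted p from 0.197 to 0.745. Etfa, the alpha subunit, lay at 106, 114 and 124 CPM in AAV8-IGFBP1 replicates 1 to 3, against 153, 110.1, 112 and 144 CPM in AAV8-Null replicates 1 to 4, with AAV8-Null replicates 2 and 3 inside the AAV8-IGFBP1 range (log2 change -0.18 with SE 0.13, adjusted p = 0.607 by edgeR). Etfb, the beta subunit, lay at 103, 93.9 and 107 CPM in AAV8-IGFBP1 replicates 1 to 3, against 132, 103, 94.4 and 122 CPM in AAV8-Null replicates 1 to 4. Its groups overlapped in the same way (log2 change -0.15 with SE 0.11, adjusted p = 0.63 by edgeR).

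**Figure D4:**
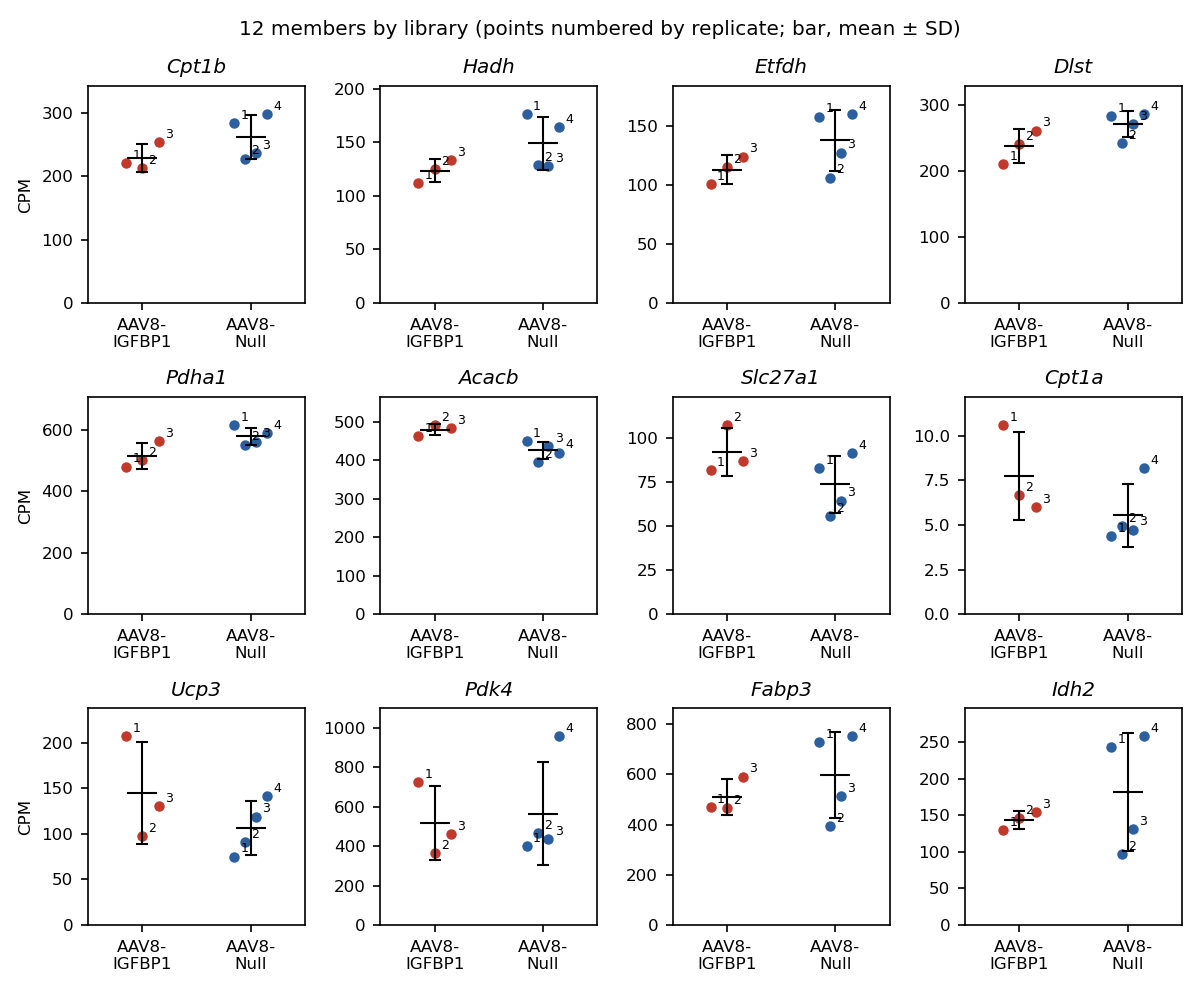
CPM of 12 members in each library (points, numbered by replicate) with the mean and SD of each group, AAV8-IGFBP1 (red) left of AAV8-Null (blue), each axis starting at 0. Acacb is the gene whose groups do not overlap; Fabp3 and Idh2 show the high pair of AAV8-Null libraries, and Cpt1a, Ucp3 and Pdk4 show single high libraries.

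Of the 5 genes that regulate fuel use, 4 had a log2 fold change above 0, 1 lay below 0 and 0 passed the test. Acacb, the mitochondrial acetyl-CoA carboxylase whose malonyl-CoA holds back carnitine palmitoyltransferase, lay at 463, 491 and 483 CPM in AAV8-IGFBP1 replicates 1 to 3, against 449, 396, 436 and 419.8 CPM in AAV8-Null replicates 1 to 4. All 3 AAV8-IGFBP1 libraries lay above all 4 AAV8-Null libraries, as in 6.33% of all genes tested, and Acacb was the only member whose groups were apart in that direction. Its means were 479 ± 14.2 CPM in AAV8-IGFBP1 and 425 ± 22.8 CPM in AAV8-Null (SD, n = 3 and 4). The difference was small and did not pass the adjusted test (log2 change 0.17 with SE 0.062, adjusted p = 0.306 by edgeR, 95% interval 0.032 to 0.31), and its adjusted p ran from 0.152 with DESeq2 to 0.580 over the 17 alternatives. No member had all AAV8-IGFBP1 libraries below all AAV8-Null libraries, as 6.01% of all genes had. Mlycd, the malonyl-CoA decarboxylase that removes malonyl-CoA, lay at 64.0, 55.3 and 66.8 CPM in AAV8-IGFBP1 replicates 1 to 3, against 54.4, 51.3, 46.8 and 66.5 CPM in AAV8-Null replicates 1 to 4. AAV8-Null replicate 4 lay inside the AAV8-IGFBP1 range (log2 change 0.18 with SE 0.12, adjusted p = 0.582 by edgeR).

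Ucp3, the uncoupling protein of muscle mitochondria, lay at 207, 97.1 and 130.1 CPM in AAV8-IGFBP1 replicates 1 to 3, against 75.0, 90.5, 119 and 141 CPM in AAV8-Null replicates 1 to 4. Its values spread widely in both groups, with AAV8-IGFBP1 replicate 1 highest and AAV8-Null replicate 1 lowest (log2 change 0.45 with SE 0.32, adjusted p = 0.637 by edgeR). With AAV8-IGFBP1 replicate 1 left out, the log2 change of Ucp3 was 0.097. Pdk4, the kinase that inhibits pyruvate dehydrogenase during fasting and fatty acid use, lay at 728, 364 and 464 CPM in AAV8-IGFBP1 replicates 1 to 3, against 402, 466, 436 and 958 CPM in AAV8-Null replicates 1 to 4. AAV8-Null replicate 4 and AAV8-IGFBP1 replicate 1 stood above the other 5 libraries (log2 change -0.13 with SE 0.40, adjusted p = 0.932 by edgeR), and the sign of the fold change differed with the library left out, from -0.45 to 0.25 over the alternatives. Acot2, a mitochondrial acyl-CoA thioesterase, averaged 14.5 ± 2.55 CPM in AAV8-IGFBP1 and 14.2 ± 4.87 CPM in AAV8-Null (SD, n = 3 and 4), and reads of its close paralog Acot1 may not be told apart from its own. Cpt1a, Acot2, Pdk4 and Ucp3 were the 4 members whose 2 highest libraries were AAV8-IGFBP1 replicate 1 and AAV8-Null replicate 4, as in 3.13% of all genes. That pair of libraries was also picked after the values were seen. As background, all 4 genes are known targets of the PPARs, which also drive other fatty acid oxidation genes. Any part of the PPARs in this order of libraries was not tested.

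The subunits of pyruvate dehydrogenase had lower means in AAV8-IGFBP1 in 4 of 4 genes, between -0.17 and -0.11 on the log2 scale, and 0 passed the test. Pdha1, the catalytic E1 alpha subunit that PDK4 phosphorylates, lay at 479.7, 499.7 and 562 CPM in AAV8-IGFBP1 replicates 1 to 3, against 614, 551, 561 and 588 CPM in AAV8-Null replicates 1 to 4. AAV8-IGFBP1 replicate 3 lay between AAV8-Null replicates 3 and 4, and the other 2 lay below all controls (log2 change -0.17 with SE 0.073, adjusted p = 0.373 by edgeR, 95% interval -0.33 to -0.0062). With 1 library left out at a time, the log2 change of Pdha1 ran from -0.24 to -0.12 and its adjusted p from 0.249 to 0.679. Dlat, the E2 acetyltransferase core, lay at 145, 149 and 173 CPM in AAV8-IGFBP1 replicates 1 to 3, against 185, 163, 164 and 185 CPM in AAV8-Null replicates 1 to 4, with the same library inside the control range (log2 change -0.16 with SE 0.083, adjusted p = 0.46 by edgeR). Dld, the E3 dihydrolipoamide dehydrogenase that the oxoglutarate dehydrogenase complex shares, lay at 191, 214 and 217 CPM in AAV8-IGFBP1 replicates 1 to 3, against 241, 199, 220.1 and 244 CPM in AAV8-Null replicates 1 to 4. AAV8-Null replicate 2 lay below 2 of the AAV8-IGFBP1 libraries (log2 change -0.13 with SE 0.084, adjusted p = 0.575 by edgeR). Pdhb, the E1 beta subunit, averaged 169.8 ± 16.9 CPM in AAV8-IGFBP1 and 184 ± 13.6 CPM in AAV8-Null (SD, n = 3 and 4). The library AAV8-IGFBP1 replicate 1 was the lowest of the 7 for each of the 4 genes. The median coefficient of variation of the 4 genes was 9.16% in AAV8-IGFBP1 and 7.35% in AAV8-Null, and it was larger in AAV8-Null for 1 of them.

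Of the 13 TCA cycle genes 12 had a log2 fold change below 0, with a median of -0.13, and 0 passed the test. Their median coefficient of variation was 9.004% in AAV8-IGFBP1 and 8.34% in AAV8-Null. Dlst, the succinyltransferase of the oxoglutarate dehydrogenase complex, lay at 209.7, 240.3 and 261 CPM in AAV8-IGFBP1 replicates 1 to 3, against 283, 242, 270.2 and 285 CPM in AAV8-Null replicates 1 to 4. AAV8-IGFBP1 replicate 3 lay above AAV8-Null replicate 2 (log2 change -0.19 with SE 0.088, adjusted p = 0.41 by edgeR). Cs, citrate synthase, often used as a measure of mitochondrial content, lay at 564, 564 and 637 CPM in AAV8-IGFBP1 replicates 1 to 3, against 678, 616, 611 and 707 CPM in AAV8-Null replicates 1 to 4. A pair of AAV8-IGFBP1 libraries (replicates 1 and 2) lay below all controls and replicate 3 among them (log2 change -0.15 with SE 0.077, adjusted p = 0.472 by edgeR). Idh3b, a regulatory subunit of the NAD-dependent isocitrate dehydrogenase, lay at 334, 367 and 383 CPM in AAV8-IGFBP1 replicates 1 to 3, against 415, 351, 397 and 427 CPM in AAV8-Null replicates 1 to 4, with AAV8-Null replicate 2 inside the AAV8-IGFBP1 range (log2 change -0.14 with SE 0.081, adjusted p = 0.532 by edgeR). Its partner subunits Idh3a and Idh3g had log2 fold changes of -0.11 and -0.11 (by edgeR, adjusted p = 0.614 and 0.616).

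Idh2, the NADP-dependent mitochondrial isocitrate dehydrogenase, had the lowest log2 fold change of the 46 members and also a wide interval (log2 change -0.34 with SE 0.37, adjusted p = 0.77 by edgeR, 95% interval -1.26 to 0.57). It lay at 130, 147 and 154 CPM in AAV8-IGFBP1 replicates 1 to 3, against 243, 96.4, 131 and 258 CPM in AAV8-Null replicates 1 to 4. AAV8-Null replicates 1 and 4 lay above the AAV8-IGFBP1 libraries, replicate 2 below them and replicate 3 among them, with a coefficient of variation of 44.1% in AAV8-Null against 8.52% in AAV8-IGFBP1. The log2 fold change of Idh2 was -0.13, -0.17 or -0.55 with AAV8-Null replicate 4, 1 or 2 left out. Ogdh, the E1 subunit of the oxoglutarate complex, averaged 777 ± 74.3 CPM in AAV8-IGFBP1 and 858 ± 98.7 CPM in AAV8-Null (SD, n = 3 and 4). The cytosolic and mitochondrial malate dehydrogenases Mdh1 and Mdh2 had log2 fold changes of -0.23 and -0.13, and Fh1, fumarase, of -0.12 (by edgeR, adjusted p = 0.613, 0.649 and 0.639). The succinyl-CoA ligase genes were nearest to 0, with -0.052 for the shared alpha subunit gene Suclg1, -0.050 for the ADP-forming Sucla2 and 0.013 for the GDP-forming Suclg2. The 95% interval of Suclg2 was -0.15 to 0.18.

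Other genes of the pathway gave no call either. Of 18 further TCA cycle genes 0 passed the test and 13 had a log2 fold change below 0 (median -0.13), among them Got2 (-0.32, adjusted p by edgeR = 0.312) and Got1 (-0.40, 0.386), the aminotransferases of the malate-aspartate shuttle. Of 13 genes of pyruvate entry and pyruvate dehydrogenase control 0 passed, 4 lay above 0 and 9 below. The phosphatase gene Pdp2 (0.48), the kinase gene Pdk1 (-0.20) and Pdhx, which encodes the E3 binding protein (-0.16), had the lowest unadjusted p-values of that list, with adjusted p-values by edgeR of 0.271, 0.331 and 0.364. Of 7 ketone body genes 0 passed, and Oxct1, the enzyme that activates acetoacetate, lay at 264, 304 and 342 CPM in AAV8-IGFBP1 replicates 1 to 3, against 410.2, 325, 367 and 416 CPM in AAV8-Null replicates 1 to 4 (log2 change -0.32 with SE 0.11, adjusted p = 0.277 by edgeR). Of 16 peroxisomal genes 0 passed, with 8 above and 8 below 0 (median 0.025). Of 30 tested genes among 31 other acyl-CoA and carnitine genes 0 passed, with 14 above and 16 below 0.

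Lipid droplet genes held the lowest adjusted p-values of these lists. Of 14 genes 0 passed the test, and 7 lay above and 7 below 0. The groups did not overlap in 2 genes, 1 in each direction, as in 6.33% (above) and 6.01% (below) of all genes tested. Plin4, a perilipin of adipocytes and muscle, lay at 269, 304 and 237 CPM in AAV8-IGFBP1 replicates 1 to 3, against 182, 163, 174 and 225 CPM in AAV8-Null replicates 1 to 4 (log2 change 0.54 with SE 0.12, adjusted p = 0.115 by edgeR). Plin3, a perilipin found in most cells, lay at 20.6, 17.2 and 19.1 CPM in AAV8-IGFBP1 replicates 1 to 3, against 31.6, 22.7, 24.8 and 26.9 CPM in AAV8-Null replicates 1 to 4 (log2 change -0.48 with SE 0.11, adjusted p = 0.124 by edgeR). Of 21 transcriptional regulators 0 passed, 10 lay above and 11 below 0. Perm1, a muscle regulator that acts with PGC-1 and the estrogen-related receptors, lay at 173, 167 and 229 CPM in AAV8-IGFBP1 replicates 1 to 3, against 283, 208, 260.2 and 281 CPM in AAV8-Null replicates 1 to 4 (log2 change -0.45 with SE 0.14, adjusted p = 0.262 by edgeR), and AAV8-IGFBP1 replicate 3 lay above AAV8-Null replicate 2. Ppara, the PPAR that drives fatty acid oxidation, averaged 5.60 ± 0.207 CPM in AAV8-IGFBP1 and 8.25 ± 2.36 CPM in AAV8-Null (SD, n = 3 and 4) (log2 change -0.55 with SE 0.24, adjusted p = 0.386 by edgeR). Its single values were 5.36, 5.76 and 5.67 CPM in AAV8-IGFBP1 replicates 1 to 3. They were 9.46, 4.72, 9.59 and 9.25 CPM in AAV8-Null replicates 1 to 4, with AAV8-Null replicate 2 the lowest of all libraries.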

How the data were processed

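Libraries of quadriceps RNA were prepared with Nugen/Tecan's Universal Plus kit, per the labels' protocols. Estimated counts by gene symbol, 1 column for each of 7 libraries, are what the authors deposited. The submitters' processing notes list R 4.2.2, Salmon 1.10.1, STAR 2.7.9a, Trim Galore 0.6.7 and cutadapt 3.4 with build GRCm39, without saying what each did. Annotation and strand setting are not given in the sources used here. Reads of overlapping genes may therefore be shared. Of the 46 members 40 had an estimate that was not whole in at least 1 library (tolerance 1e-06). Between 5617 and 6277 values per library were not whole, and all were rounded before testing. Library totals were 38947453 to 51210360 counts, and the limit for a gene at 0 (3 counts) was 0.0586 to 0.0770 CPM, covering counting error only. No pair of libraries within a group was alike within counting noise: chi-square over its degrees of freedom was 20.4 to 54.6.

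The test was edgeR 4.0.16 in R 4.3.3: filterByExpr (minimum count 10, total 15), TMM scaling, estimateDisp, glmQLFit with robust TRUE and legacy FALSE, and glmQLFTest on group, adjusted by Benjamini-Hochberg over all 14935 genes tested, threshold 0.05. Standard errors are the log2 fold change over the square root of F, and 95% intervals use the fit's degrees of freedom. Alternatives were DESeq2 1.42.0, limma 3.58.1, 3 other scalings, other count filters, robust FALSE, a replicate block and leaving out each library. Levels use log2 CPM with a prior count of 2. Single values per library were compared over 35 splits, unadjusted. The members and lists were chosen with earlier results of these data known. Values per library are given for the 3 members of each role with the lowest unadjusted p, other members by their fold change or group means, and up to 3 genes of each further list by the same order. Idh2, Acaa2, Eci2, Pdk4, Cd36, Myh7, Myh2 and Myh4 were singled out after their values were seen. 1 gene that the order would name is not reported here. The steps were run on simulated data, where genes varied independently and each planted change was larger than that of any member. Recovery of changes as small as those of the members was not tested.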

Additional observations from a re-analysis of the deposited data

Results flagged for a closer look

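Of 69 sets of 4 AAV8-Null values examined (46 members and 23 list levels), 3 had a library far from the other 3 of its group by Dixon's criterion, where chance gives about 1 in 20, or 3.45 of 69. All 3 were AAV8-Null replicate 4. Pdk4 lay at 958 CPM there, while AAV8-Null replicates 1 to 3 had 402 to 466 CPM. Cpt1a lay at 8.18 CPM there, against 4.37 to 4.93 CPM. The endothelial marker level was 0.15 there, against -0.020 to -0.0060. The cause was not tested.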

How the results depend on the processing

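The count of members past the threshold was 0 in each direction under all 17 alternatives. The members' median log2 fold change of -0.13 stayed below 0 under each of them, from -0.19 to -0.08 with 1 library left out. Over all 46 members the sign changed in 0 under the 3 other scalings, 1 without a count filter, 1 with limma-voom, 3 with the replicate block and 1 to 3 with 1 library left out. The number of all genes called, 87, was 157 without a count filter (27257 genes tested), 447 with DESeq2 and 4 with the replicate number as a block; the cause was not tested. It was 14 to 79 with 1 library left out, where fewer samples were fitted. With the replicate block the members' median was -0.08 and 0 members were called. The labels name no pairing of the samples by number. Same-numbered libraries had correlations of deviations of -0.098, 0.068 and -0.057, and not every library correlated best with its own number. With 3 and 4 libraries this check cannot exclude a pairing. An older edgeR quasi-likelihood method, added after the data were seen, called 83 genes and 0 members. With 3 and 4 libraries, intervals for members such as Pdk4, Ucp3 and Idh2 are wide, and differences inside them were not detectable at this spread.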
